A study of Homo sapiens and Mus musculus with 20 samples.

Results

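The KDM6A sites of ARP1 with no KARPAS counterpart were 6787 regions of the human genome. They were chosen from the 90964 regions enriched for KDM6A in ARP1, a multiple myeloma cell line labelled KDM6A wild type (WT), on chromosomes 1 to 22 and X. A site had to lie away from every KDM6A region of the KDM6A knock out (KO) line, which 63118 regions did. It also had to overlap a region precipitated with an HA antibody from the HA-tagged ARP1 line that was away from every HA region of the untagged WT line. That left 10335 regions found with both antibodies. Of these, 6787 (65.7%) overlapped no KDM6A region of KARPAS, a second line labelled multiple myeloma and KDM6A wild type, and are called the ARP1-only sites here. The other 3548 (34.3%) overlapped one and are called the KARPAS-shared sites. An overlap was at least 1 bp throughout, and a site without an overlap lacks a called region, which is not a proof that the protein or mark is missing.

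The series held 16 human and 4 mouse libraries of chromatin immunoprecipitation with sequencing, each group being 1 library. No comparison in the text can be checked against replicates, and no test between groups could be made. In ARP1 the groups were the HA-tagged line, whose genotype label reads KDM6A knock out although its title names the tag, the KO line, the JmjD-dead line and the WT line. The JmjD-dead label names the demethylase domain of KDM6A, and the titles of those libraries carry the substitution H1146E instead. KDM6A was precipitated from KO and WT cells, HA from HA-tagged and WT cells, H3K27ac and H3K27me3 from KO, JmjD-dead and WT cells, and H3K4me1 from KO and WT cells. Input DNA came from KO, JmjD-dead and WT cells. The H3K4me1 library of the KO line is titled E4, and the KO libraries of the other antibodies and of input are titled KO. The sources used here do not say whether these were the same clone. The labels name no treatment, and the mouse libraries were not used.

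KDM6A, also called UTX, removes methyl groups from lysine 27 of histone H3, a mark laid down by Polycomb repressive complex 2. It is a subunit of the COMPASS-like complexes built on KMT2C and KMT2D, which place H3K4me1 at enhancers, and it is known to assist acetylation of the same lysine 27. H3K27ac marks active enhancers and promoters, H3K4me1 marks enhancers whether active or primed, and H3K27me3 marks Polycomb-repressed chromatin. KDM6A is lost or mutated in part of multiple myeloma, a cancer of plasma cells.

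A few promoter windows that ARP1-only sites touched are printed to show gene starts next to a site. A window can reach beyond its site, so its letters are those of the gene start and not of the bound stretch alone. Of the 6787 sites, 6493 lay on chromosomes covered by the RefSeq promoter table (GRCh38.p14), and 80 of them overlapped 86 of its 34961 windows, each of 300 bases. The windows of IFIT5, LIPA and HHLA2 are shown because their sites lie within 10 kb of listed immune genes and on a gene start. Those of RASGRP3, an activator of Ras signalling in B cells, and SMAD3, a transcription factor of the TGF-beta pathway, were chosen after their values were seen. Each runs from 250 bases before the start to 50 bases after it, 5′ to 3′ on the gene's own strand, with matches to the searched motifs in capitals.
IFIT5, chr10:89414318-89414617, plus strand: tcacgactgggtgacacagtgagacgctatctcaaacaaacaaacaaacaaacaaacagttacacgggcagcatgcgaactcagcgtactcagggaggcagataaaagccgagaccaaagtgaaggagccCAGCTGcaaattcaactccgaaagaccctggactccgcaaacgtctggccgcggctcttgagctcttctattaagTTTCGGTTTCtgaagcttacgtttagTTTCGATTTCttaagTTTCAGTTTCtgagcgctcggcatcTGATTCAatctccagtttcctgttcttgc
LIPA, chr10:89414630-89414929, minus strand: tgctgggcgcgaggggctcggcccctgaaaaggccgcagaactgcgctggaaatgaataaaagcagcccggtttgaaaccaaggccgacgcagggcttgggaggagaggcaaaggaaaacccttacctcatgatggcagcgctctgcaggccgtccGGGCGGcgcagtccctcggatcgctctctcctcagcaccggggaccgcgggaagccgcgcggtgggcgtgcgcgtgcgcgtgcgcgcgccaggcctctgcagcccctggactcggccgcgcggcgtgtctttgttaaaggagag
HHLA2, chr3:108296298-108296597, plus strand: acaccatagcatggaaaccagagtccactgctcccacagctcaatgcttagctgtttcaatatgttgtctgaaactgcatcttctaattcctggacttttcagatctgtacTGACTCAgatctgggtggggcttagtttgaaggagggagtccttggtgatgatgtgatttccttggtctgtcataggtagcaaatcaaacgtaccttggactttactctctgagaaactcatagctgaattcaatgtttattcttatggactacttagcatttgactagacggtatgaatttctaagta
RASGRP3, chr2:33476399-33476698, plus strand: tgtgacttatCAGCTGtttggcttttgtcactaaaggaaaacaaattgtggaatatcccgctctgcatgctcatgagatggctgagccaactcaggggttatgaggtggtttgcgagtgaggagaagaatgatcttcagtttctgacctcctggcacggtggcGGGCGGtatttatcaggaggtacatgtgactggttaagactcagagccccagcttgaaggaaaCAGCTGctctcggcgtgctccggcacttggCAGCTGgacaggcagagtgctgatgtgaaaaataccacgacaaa
SMAD3, chr15:67098429-67098728, plus strand: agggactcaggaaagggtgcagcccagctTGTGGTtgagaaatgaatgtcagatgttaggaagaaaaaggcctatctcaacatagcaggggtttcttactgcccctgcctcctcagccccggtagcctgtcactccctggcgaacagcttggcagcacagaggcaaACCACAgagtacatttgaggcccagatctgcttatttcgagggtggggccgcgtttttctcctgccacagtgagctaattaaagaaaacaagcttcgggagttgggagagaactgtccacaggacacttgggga
The IFIT5 window held 3 matches to the interferon response repeat, GAAA and GAAA with any 2 bases between them, all on the opposite strand, and 1 match to TGANTCA, the AP-1 motif. The HHLA2 window held 1 match to TGANTCA. RASGRP3 held 3 matches to the E-box CAGCTG, and SMAD3 held 2 matches to the RUNX motif TGTGGT, 1 on each strand. The site covered all 300 bases of the RASGRP3 and SMAD3 windows, 279 of the IFIT5 window, 193 of the HHLA2 window and 87 of the LIPA window. The 1 match in the LIPA window, GGGCGG, lay outside its site, and the matches of the other windows lay inside theirs. A match is a description of the letters and not a binding site. The site on the RASGRP3 window, chr2:33476058-33476942, had a KDM6A fold of 20.7 and an HA fold of 24.7, with H3K27ac folds of 36.6 in KO, 72.3 in JmjD-dead and 49.5 in WT. The site on the SMAD3 window, chr15:67098306-67098857, had a KDM6A fold of 6.91, with H3K27ac folds of 15.8 in KO, 47.2 in JmjD-dead and 57.0 in WT. Folds are the authors' enrichment over the mean of the same library, so values of separate libraries stand side by side and are not compared.

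Motifs were searched on both strands in the 86 windows at ARP1-only sites and in the 34683 distinct windows of the table. The interferon response repeat was in 10.5% of the windows at ARP1-only sites (95% interval 4.90 to 18.9%) and in 3.57% of all windows. TGANTCA was in 22.1% (13.9 to 32.3%) and in 7.70%, and TGTGGT in 24.4% (15.8 to 34.9%) and in 13.1%. The GC box GGGCGG went the other way, in 29.1% of the windows at ARP1-only sites (19.8 to 39.9%) and in 45.0% of all windows. The E-boxes CAGCTG and CACCTG were in 20.9% and 23.3% of the windows at ARP1-only sites, against 17.9% and 20.6% of all windows. The octamer ATGCAAAT was in 1.16%, against 1.76%. No motif lies inside another, and each was counted by itself. Some of the 86 windows overlap each other and hold the same match, such as a GC box shared by the windows of NIF3L1 and PPIL3. The windows of NCOA7 and LOC124901397 share an interferon response repeat and a TGTGGT. A match can also lie outside the site, as the repeat in the WARS1 window does. Windows at KARPAS-shared sites were not counted, so whether any share is particular to ARP1-only sites was not tested. Each window was counted separately, so the intervals do not allow for this. All intervals in the text are exact Clopper-Pearson intervals that cover counting error only.

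A microRNA gene also lay under a site. The ARP1-only site chr17:48632338-48632616 covered the whole hairpin of MIR196A1, and its mature products are shown with the seed, bases 2 to 8, in capitals.
hsa-miR-196a-5p: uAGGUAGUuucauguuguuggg
hsa-miR-196a-1-3p: cAACAACAuuaaaccacccga
Both are read from the minus strand, and miR-196a is known for targeting HOX transcripts. HOXB9 lay within 10 kb of this site, which had an H3K27ac region of fold 29.1 in KO, 41.3 in JmjD-dead and 60.3 in WT cells.

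The KDM6A libraries held 20.2 M tags (M, units of 1000000) in ARP1 KO, 11.9 M in ARP1 WT and 37.4 M in KARPAS cells, and the HA libraries 25.3 M in HA-tagged and 16.6 M in WT cells. The H3K27ac libraries held 25.6, 31.2 and 30.8 M fragments in KO, JmjD-dead and WT cells. As a check of the lines, an H3K27ac region of ARP1 WT lay within 10 kb of 10 of 10 plasma cell marker genes, 7 of 10 B cell, 5 of 8 T and NK cell and 4 of 6 myeloid marker genes. A KDM6A region of KARPAS lay near 10 of 10, 9 of 10, 6 of 8 and 5 of 6. A region near a gene does not show that the gene is expressed, so these counts do not separate the cell types.

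Membership depended on where regions ended. The nearest KARPAS region lay 6 bp from the closest ARP1-only site, under 100 bp away for 40 sites, under 1 kb for 382 (5.63%) and under 10 kb for 1868 (27.5%), and the median gap was 34.7 kb. On the other side of the limit, the smallest overlap of a KARPAS-shared site was 1 bp, and 84 shared sites overlapped KARPAS by under 100 bp. The weakest ARP1-only sites had a −log10 q-value of 1.60, the lowest in the WT KDM6A list. With a −log10 q of at least 5 in every list 4316 sites were found by the same rule, and with lists of equal length 4465.

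The ARP1-only sites were short and mostly of low height. Fold enrichment, −log10 q and pileup are the authors' own values for each region, and since they helped to choose the sites they are given as a description. The median site was 356 bp long with a pileup of 10 tags (range 5 to 99) and a fold enrichment of 5.85 (range 3.19 to 53.2). The KARPAS-shared sites had a median fold of 6.38, and all WT KDM6A regions one of 5.32. Because 5 tags could make a region, the lowest ARP1-only sites rest on very few reads.

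The 10 highest sites with a protein-coding gene within 10 kb, outside the densest bins described below, lay near OBI1, TERT, LRRC4C, TRIM60, CD44, RPTN, ACOXL, DRC9, TTC17 and GALNT5. The highest of all ARP1-only sites, chr4:154120185-154121074 with a KDM6A fold of 53.2, lay over 10 kb from any protein-coding gene and had no H3K27ac region in KO, JmjD-dead or WT. None of the 10 lay on a promoter window of the table. For single sites, the fold of each overlapping mark region is set side by side without comparison, since every list was scaled to its own library and a mark region can reach far beyond the site. The highest of the 10, chr13:78637973-78638870 in OBI1, a ubiquitin ligase of replication origins, had 96 tags and a KDM6A fold of 51.6, with an HA region of 8.71 and H3K27ac regions of 5.40 in KO, 10.2 in JmjD-dead and 6.70 in WT. The site chr5:1268588-1269226 in TERT, the telomerase catalytic subunit, had a KDM6A fold of 40.4 with H3K27ac regions of 8.31 in KO and 6.68 in JmjD-dead and none in WT. The site chr11:35177257-35178081 in CD44, an adhesion receptor, had a KDM6A fold of 37.2 and no H3K27ac region in any of the 3 genotypes. That site was 3299 bp from a KARPAS region.

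Of these 10, the site with the highest H3K27ac in WT was chr1:152143123-152143871 within 10 kb of RPTN, an epidermal matrix gene, with a KDM6A fold of 36.1 and an HA fold of 12.2. Its H3K27ac region had a fold of 28.7 in JmjD-dead and 48.4 in WT, and the site overlapped no H3K27ac region in KO, although another stretch of the same WT region of 3658 bp did. The LRRC4C site also had no H3K27ac region in KO, against folds of 8.65 in JmjD-dead and 4.10 in WT. ACOXL and CD44 had none in KO, JmjD-dead or WT. The others, near TRIM60, DRC9, TTC17 and GALNT5, had H3K27ac regions of 4.16 to 7.07 in KO, 5.11 to 14.5 in JmjD-dead and 4.84 to 9.68 in WT. At 9 of these 10 sites the WT H3K27ac region was therefore absent or had a fold of 9.68 or lower.

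In WT cells most ARP1-only sites carried enhancer marks. An H3K27ac region lay on 4950 of 6787 ARP1-only sites, 72.9% (71.9 to 74.0%), on 84.8% of KARPAS-shared sites and on 24.0% of all WT KDM6A regions. An H3K4me1 region lay on 76.9% (75.8 to 77.9%), on 88.3% and on 31.4% of the same sets. Of all WT KDM6A regions 59.4% lay in the dense bins defined below, against 8.65% of ARP1-only sites. The shares of all WT KDM6A regions outside these bins are not given. H3K27me3 was rare, on 342 ARP1-only sites or 5.04% (4.53 to 5.59%), on 6.74% of KARPAS-shared sites and on 6.70% of all WT KDM6A regions. It was on 1.83% of the sites found with −log10 q of at least 5 and on 1.80% when every overlap had to cover at least 50%. Input regions lay on 0.442% of ARP1-only sites in KO, 0.0589% in JmjD-dead and 0.192% in WT. The input libraries held only 0.725, 0.223 and 0.384 M fragments in that order, so these shares cannot show that a site is free of input signal.

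**Figure D1:**
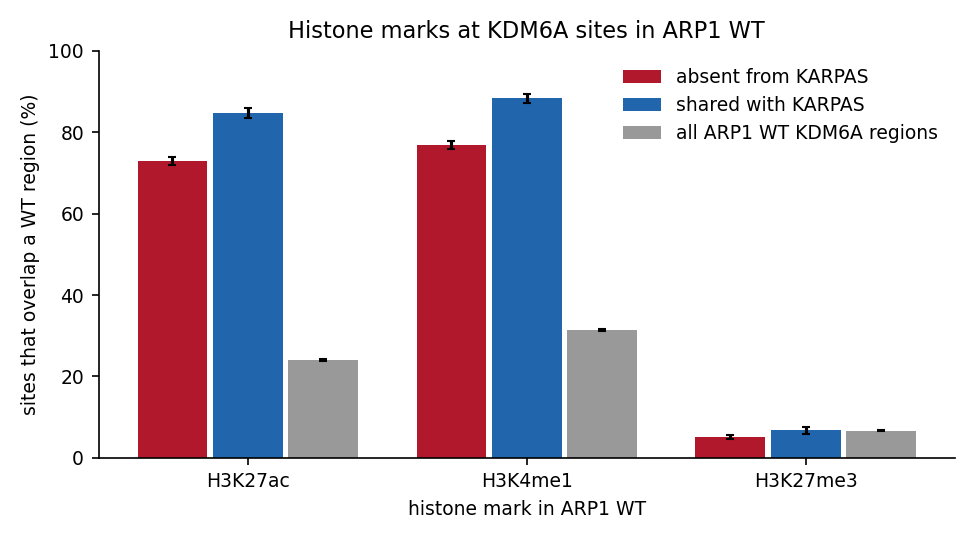
Percent of sites (vertical axis) that overlap a WT region of each histone mark (horizontal axis) for ARP1-only sites, KARPAS-shared sites and all ARP1 WT KDM6A regions, with exact 95% intervals for counting error. H3K27ac was on 72.9% of ARP1-only sites, 84.8% of KARPAS-shared sites and 24.0% of all regions, and H3K27me3 was on under 7% in each set.

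The marks stood together. Both H3K27ac and H3K4me1 were on 4680 ARP1-only sites (69.0%), H3K27ac alone on 270, H3K4me1 alone on 537 and neither on 1300 (19.2%). Among KARPAS-shared sites 82.9% had both and 9.75% had neither, and among all WT KDM6A regions 20.0% had both and 64.6% had neither. H3K27ac alone was on 3.98% of ARP1-only sites, 1.92% of KARPAS-shared sites and 4.00% of all WT KDM6A regions, and H3K4me1 alone on 7.91%, 5.44% and 11.4% of the same sets. Of the 342 ARP1-only sites with H3K27me3, 284 (83.0%) also lay on an H3K27ac region, against 93.7% of such KARPAS-shared sites and 74.2% of such WT KDM6A regions, so an ARP1-only site that was in H3K27me3 and out of H3K27ac was found 58 times. Sites with neither H3K27ac nor H3K4me1 lay in crowded parts of the genome more often than sites with both. Of those with neither, 25.0% lay in the dense bins defined below, against 2.63% of sites with both marks. The share with H3K27ac was 66.0% in the 100 sites with the highest KDM6A −log10 q, 74.4% in the top 500 and 77.2% in the top 1000.

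The H3K27ac regions under ARP1-only sites were long and high in their list. In WT they had a median length of 1545 bp and a median fold of 14.5, against 2026 bp and 20.8 under KARPAS-shared sites and 487 bp and 5.96 over the whole WT H3K27ac list. Of the distinct regions under ARP1-only sites, 39.2% were in the top class when that list was divided by −log10 q into 5 classes of equal size, against 53.8% under KARPAS-shared sites.

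Most H3K27ac at ARP1-only sites was also called in each mutant. In KO, 783 of 4950 sites with a WT H3K27ac region overlapped no H3K27ac region, 15.8% (14.8 to 16.9%). The same share was 8.14% (7.19 to 9.18%) of KARPAS-shared sites and 25.3% of all WT KDM6A regions with H3K27ac, and over the whole WT H3K27ac list 30.1% of regions had no counterpart in KO. In JmjD-dead, 478 of 4950 ARP1-only sites lacked an H3K27ac region, 9.66% (8.85 to 10.5%), against 6.81% (5.94 to 7.77%) of KARPAS-shared sites, 19.3% of all WT KDM6A regions with H3K27ac and 27.7% of all WT H3K27ac regions. Over all rank classes both shares for the ARP1-only sites are thus below that of all WT KDM6A regions with the mark and above that of the KARPAS-shared sites. The share of the whole list counts a region as lost only when no part of it overlapped a mutant region, while a site is counted by its own stretch alone. Counted as whole regions, 11.5% (10.6 to 12.5%) of the 4589 distinct WT H3K27ac regions under ARP1-only sites had no counterpart in KO and 6.36% (5.67 to 7.11%) none in JmjD-dead. The KO and JmjD-dead losses were read against the same WT library, so a weak call in WT enters both. The share depended on how the loss was looked up. When the whole WT H3K27ac region under a site was searched, 10.9% had no region in KO and 6.02% none in JmjD-dead, and when every overlap, those of the rule included, had to cover at least 50%, the shares were 24.2% and 19.6%.

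Loss followed the rank of the WT H3K27ac region, by −log10 q. Among ARP1-only sites on the top of these 5 classes, 2.11% had no KO region, and in the classes below it 15.1%, 37.9%, 56.9% and 63.5% had none. For KARPAS-shared sites the KO shares were 0.946%, 9.61%, 30.1%, 41.3% and 45.0%, and for all WT KDM6A regions 1.86%, 11.9%, 30.9%, 51.4% and 62.7%. In JmjD-dead, ARP1-only sites lost the mark at 0.769%, 7.84%, 26.0%, 38.2% and 47.1% in the same order, KARPAS-shared sites at 0.473%, 7.73%, 25.3%, 39.4% and 45.0%, and all WT KDM6A regions at 1.09%, 6.85%, 21.99%, 39.5% and 55.2%. Counted by site, the KO share of ARP1-only sites within a class stood above that of KARPAS-shared sites in 5 of 5 classes. It also stood above that of all WT KDM6A regions in 5 of 5, although the share over all classes was below the latter. In the top and lowest classes the margins over all WT KDM6A regions were small. With class 1 as the highest, the KO intervals overlapped those of all WT KDM6A regions in classes 1, 4 and 5. They overlapped those of KARPAS-shared sites in classes 3, 4 and 5. In JmjD-dead the share of ARP1-only sites stood above KARPAS-shared sites in 4 of 5 by small margins and above all WT KDM6A regions in 2 of 5. Whether KO and JmjD-dead differ in this was not tested, and no replicate bears on it.

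The lower share of ARP1-only sites over all classes went with the high ranks of their regions. Counted as whole regions, those under ARP1-only sites had no KO counterpart at 0.389%, 7.97%, 29.2%, 50.6% and 62.5% from the top class down, against 0.137%, 6.78%, 28.9%, 49.8% and 64.9% of the whole WT list. These KO shares were close to the list in the lower 4 classes, with the list inside the interval of the regions under ARP1-only sites in each. Whole regions under all WT KDM6A regions had no KO counterpart at 0.218%, 6.33%, 26.8%, 50.9% and 66.6%. The regions under ARP1-only sites were above these shares in the upper 3 classes and below them in the others. In JmjD-dead the whole regions under ARP1-only sites were lost at 0.111%, 2.47%, 17.9%, 33.1% and 45.2%, against 0.0217%, 3.06%, 22.7%, 47.1% and 65.9% of the list. In JmjD-dead they were thus below the list in 4 of 5 classes, and their intervals left out the list's value in the lowest 3. Whole regions under KARPAS-shared sites were lost in JmjD-dead at 2.84%, 16.4%, 35.9% and 40.0% in the lower 4 classes. Those under all WT KDM6A regions were lost at 2.47%, 17.8%, 39.2% and 58.3%. Both sets were also below the list in these classes, so this was not particular to ARP1-only sites.

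**Figure D2:**
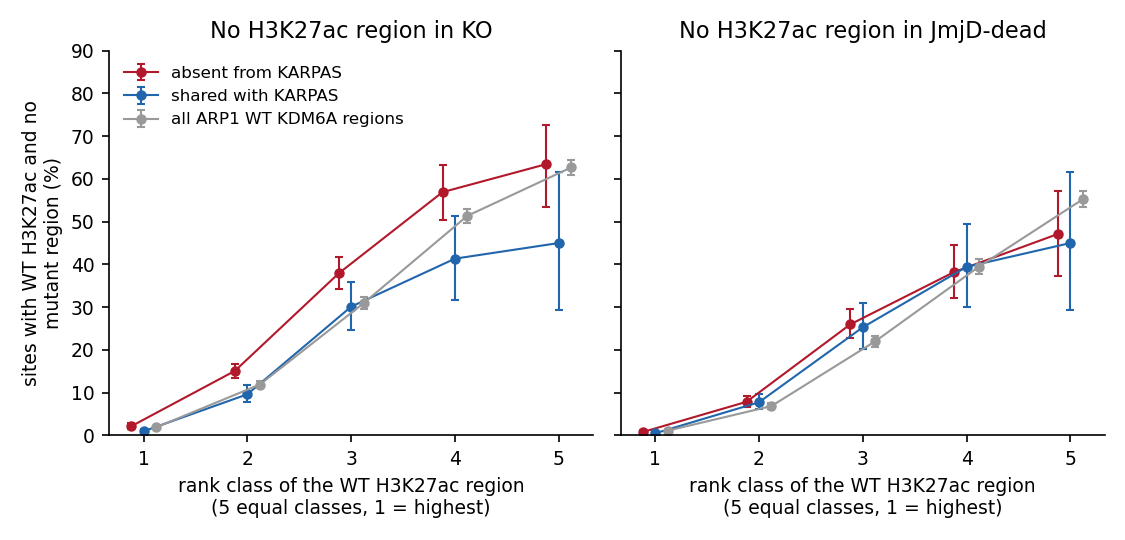
Percent of sites with a WT H3K27ac region that overlap no H3K27ac region in KO (left) or JmjD-dead (right), by rank class of the WT H3K27ac region (5 classes of equal size, class 1 holding the highest −log10 q), for ARP1-only sites, KARPAS-shared sites and all ARP1 WT KDM6A regions with exact 95% intervals. ARP1-only sites go from 2.11% to 63.5% in KO and from 0.769% to 47.1% in JmjD-dead from class 1 to class 5.

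Sites whose WT H3K27ac stood without H3K4me1 lost it most often. Among the 270 such sites, 62.2% (56.1 to 68.0%) had no H3K27ac region in KO and 39.6% (33.8 to 45.7%) none in JmjD-dead. Among the 4680 sites with both marks the shares were 13.1% (12.2 to 14.1%) and 7.93% (7.17 to 8.74%). This split was not made for KARPAS-shared sites or all WT KDM6A regions, nor within rank classes. Whether it is particular to ARP1-only sites or follows rank was therefore not tested. Of the 270 sites, 15.9% lay in the dense bins defined below, against 2.63% of sites with both marks. The gap to the nearest KARPAS region went with smaller differences. ARP1-only sites under 1 kb from a KARPAS region lost H3K27ac in KO at 10.3% (6.88 to 14.6%), those 1 to 10 kb away at 15.5%, those 10 to 100 kb away at 15.3% and those 100 kb or more away at 18.1% (16.0 to 20.2%). In JmjD-dead the 4 shares were 7.22%, 8.63%, 9.77% and 10.7%.

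H3K27ac also appeared at ARP1-only sites that lacked it in WT. Of 1837 such sites, 271 (14.8%, 13.2 to 16.5%) had an H3K27ac region in KO, against 18.6% of KARPAS-shared sites and 6.24% of all WT KDM6A regions without the mark. In JmjD-dead 345 (18.8%, 17.0 to 20.6%) had one, against 19.5% and 8.53%. Counting both directions, an H3K27ac region lay on 4438 ARP1-only sites (65.4%) in KO, 4817 (71.0%) in JmjD-dead and 4950 (72.9%) in WT. In the same order the shares were 80.7%, 82.0% and 84.8% of KARPAS-shared sites and 22.7%, 25.9% and 24.0% of all WT KDM6A regions. The bases covered in the site and 500 bp on each side were also counted, over sites that had any coverage in WT. That condition favours WT. At 5460 ARP1-only sites the medians were 1036 bp in KO, 1119.5 bp in JmjD-dead and 1196 bp in WT. At 3168 KARPAS-shared sites they were 1213.5, 1233.5 and 1259 bp. The rise from KO to JmjD-dead to WT was thus not particular to ARP1-only sites.

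The 10 highest ranked WT H3K27ac regions lost at an ARP1-only site in both mutants, with a gene within 10 kb, lay at CA10, CHST11, TNIK, a site shared by SLC67A2 and TMEM182, TMC1, TREML2, MGAM2, HACE1, a site shared by FAM200B and FBXL5, and PPTC7. The CA10 site chr17:52145621-52145822, in the gene of a catalytically inactive carbonic anhydrase-like protein, had 8 KDM6A tags and a WT H3K27ac fold of 58.8. CHST11, a chondroitin sulfotransferase, had a WT H3K27ac fold of 41.3, and TNIK, a kinase of the Wnt pathway, one of 40.6. These sites lay in long WT regions, from 1082 to 4894 bp, and at all 10 another stretch of the WT region overlapped a KO region. In JmjD-dead the same held for 9, TREML2 being the exception. The TREML2 site chr6:41200223-41200716, in the gene of a receptor of the TREM family, was also the strongest of the 10 for KDM6A, with a fold of 8.50, an HA fold of 13.6 and H3K4me1 folds of 4.52 in KO and 64.8 in WT. At these 10 sites the loss was thus of part of a region and, in KO, never of all of it.

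Sites with H3K27ac in both mutants and none in WT were ranked by their KO region, and NFKBIZ led in that order. It encodes an atypical inhibitor of NF-kappaB signalling. Its site chr3:101850718-101851139 had a KDM6A fold of 10.1 and H3K27ac folds of 18.7 in KO and 18.5 in JmjD-dead. GRID1, MECOM, ROBO2, RALGPS1, MEIOB, PBRM1, TFEC, ZSCAN2 and a site shared by NBPF19 and NOTCH2NLC followed, with H3K27ac folds of 9.56 to 16.6 in KO and 3.93 to 19.7 in JmjD-dead, where the ROBO2 site was the highest of the 10. MECOM encodes a transcription factor of haematopoietic stem cells, and PBRM1 a subunit of the PBAF remodelling complex. NBPF and NOTCH2NL genes are families of near-identical copies, so reads cannot be placed there with certainty.

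Most ARP1-only sites with H3K4me1 in WT had none in KO. Of 5217 sites with a WT H3K4me1 region, 4787 had no region in KO, 91.8% (91.0 to 92.5%), against 86.0% of KARPAS-shared sites, 54.8% of all WT KDM6A regions with the mark and 75.3% of all WT H3K4me1 regions. An H3K4me1 region lay on 560 ARP1-only sites (8.25%) in KO, on 13.8% of KARPAS-shared sites and on 29.1% of all WT KDM6A regions. Of all WT KDM6A regions 59.4% lay in the dense bins defined below, and their shares outside these bins are not given. The KO list as a whole was shorter and weaker, with 80845 regions of median length 220 bp and median fold 4.07 from 25.6 M fragments, against 95729 regions of 300 bp and 4.45 from 34.0 M in WT. The part of this list-wide difference in the loss at ARP1-only sites was not tested.

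Most of the few H3K27me3 regions were not called in the mutants. In KO, 285 of 342 ARP1-only sites with H3K27me3 in WT had none (83.3%, against 53.1% of all WT KDM6A regions with the mark and 74.8% of the whole WT list), and 112 of 6445 sites without it had one (1.74%, against 3.10%). In JmjD-dead, 188 of 342 had none (55.0%, against 23.9% and 52.4%) and 471 of 6445 had one (7.31%, against 13.9%). KARPAS-shared sites with the mark in WT had none at 79.5% in KO and 58.2% in JmjD-dead. KARPAS-shared sites without it had one at 2.36% and 8.31%. The KO list held 11865 H3K27me3 regions, the JmjD-dead list 37236 and the WT list 17355, from 6.60, 10.4 and 5.03 M fragments, and the part of depth in these shares was not tested. A gain of H3K27me3 was thus called at few ARP1-only sites, at a lower share than the background in KO and in JmjD-dead. The same held for KARPAS-shared sites.

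ARP1-only sites were mostly distal. Measured to the nearest start in the promoter table, 5.48% of 6493 sites lay within 2.5 kb, against 11.3% of KARPAS-shared sites and 2.31% of all WT KDM6A regions, and 44.5% lay over 50 kb away, against 31.5% and 74.6%. The median distance was 41.7 kb for ARP1-only sites, 25.6 kb for KARPAS-shared sites and 535 kb for all WT KDM6A regions, of which 59.4% lay in the dense bins defined below. Against gene spans, 3199 ARP1-only sites lay within a protein-coding gene, 493 within 10 kb of one and 3095 farther away.

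**Figure D3:**
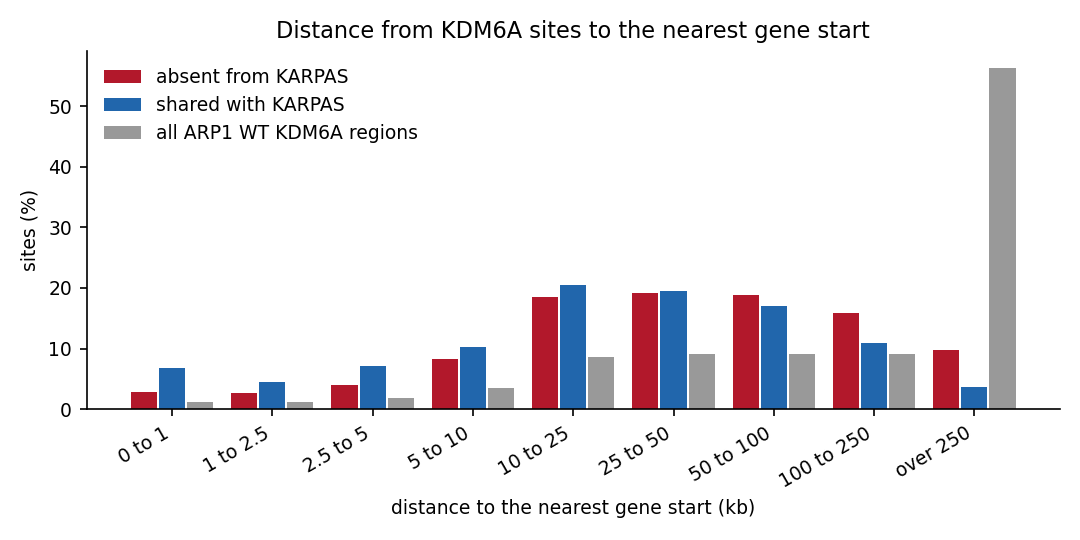
Percent of sites (vertical axis) by distance to the nearest gene start in kb (horizontal axis, classes of unequal width) for ARP1-only sites, KARPAS-shared sites and all ARP1 WT KDM6A regions. ARP1-only sites peak at 19.2% in the class from 25 to 50 kb, and 56.4% of all regions lie over 250 kb from a start.

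The mark changes followed that distance. Among ARP1-only sites, H3K27ac was present in WT on 84.8% of sites within 2.5 kb of a start, 76.2% of sites 2.5 to 50 kb away and 67.4% of sites farther out. Its loss in KO was 8.61% (5.70 to 12.4%), 14.0% (12.7 to 15.5%) and 19.5% (17.8 to 21.3%) in the same classes, and in JmjD-dead 5.30%, 8.53% and 11.7%. For KARPAS-shared sites the KO losses were 5.49%, 8.07% and 9.23%, so in KO the widest gap between the 2 sets was over 50 kb from a start. Their JmjD-dead losses were 4.62%, 6.32% and 8.24%, nearer to those of ARP1-only sites. The split by distance was not made within rank classes, so the part of rank in these differences was not tested.

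ARP1-only sites reached 2563 of 19974 protein-coding genes within 10 kb, which sets the background at 12.8%. KARPAS-shared sites reached 9.43%. A window of 50 kb gave 4589 genes for the ARP1-only sites. Of the 2563 genes, 1765 had 1 site and 93 had 5 or more. Outside the dense bins defined below, the genes with most sites were large. NAALADL2, a gene related to glutamate carboxypeptidases, had 11 over 1369.6 kb, CDH13, an atypical cadherin, had 10 over 1174 kb, and AUTS2, linked to a Polycomb complex in brain, had 10 over 1195 kb. With the 10 kb on each side counted in the length, these have 0.792, 0.838 and 0.823 sites per 100 kb. SPMIP2 had 8 sites over 189.8 kb, or 3.81 per 100 kb counted in the same way, and each of the 8 had H3K27ac in WT, 2 losing it in KO and 1 in JmjD-dead. In the dense bins GREB1, an oestrogen-regulated gene, had 11 sites over 159.9 kb, and LPIN1, a phosphatidate phosphatase, had 10 over 149.9 kb.

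Other genes with 8 sites included SRGAP2, a regulator of cell protrusions, NSMCE2, a SUMO ligase, the overlapping pair FILIP1L and CMSS1, PPP3CA, the catalytic subunit of calcineurin, and TCF12, an E-box binding transcription factor. TCF12 had 8 ARP1-only sites and no KARPAS-shared site, and of its 5 sites with WT H3K27ac 0 lost it in KO and 0 in JmjD-dead. At CDH13, 4 of 9 sites with WT H3K27ac lost it in KO and 2 of 9 in JmjD-dead. NSMCE2 had 7 KARPAS-shared sites beside its 8 ARP1-only sites. SRGAP2 has near-identical copies on chromosome 1, so its count is uncertain.

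Of the gene lists reported, plasma cell genes had the highest share with an ARP1-only site, 8 of 20 genes (40.0%, 19.1 to 63.9%, against 12.8% of all genes). KARPAS-shared sites lay within 10 kb of 6 of the same 20 genes, against 9.43% of all genes. H3K27ac in WT was within 10 kb of 20 of these 20 genes and of 74.3% of all genes. The 8 were IRF4 and PRDM1, transcription factors of the plasma cell programme, CD38, SLAMF7 and GPRC5D, surface proteins targeted in myeloma, JCHAIN, which links antibody units, ELL2, an elongation factor for antibody transcripts, and CCND2, a D-type cyclin. A KARPAS KDM6A region lay within 10 kb of each gene except CCND2, so KARPAS binding was also called near these genes, away from the ARP1-only sites. At ELL2 and CD38, 3 KARPAS-shared sites each stood beside the ARP1-only site.

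At PRDM1 the site chr6:106114343-106114837 had a KDM6A fold of 11.2, an HA fold of 7.31 and H3K27ac folds of 116 in KO, 151.4 in JmjD-dead and 169.0 in WT. At IRF4 the sites chr6:389688-390771 and chr6:391005-391204 shared 1 H3K27ac region of 51.5 in KO, 54.6 in JmjD-dead and 74.5 in WT. SLAMF7 had H3K27ac folds of 5.82 in KO, 19.7 in JmjD-dead and 25.3 in WT, and GPRC5D of 15.4, 32.2 and 40.6 in that order. CD38 had an H3K27ac region in JmjD-dead, of 6.68, and none in KO or WT. CCND2 had the highest KDM6A fold of the list, 19.1, with H3K27ac of 7.07 in KO, 11.4 in JmjD-dead and 11.2 in WT. At 8 of these 9 sites H3K27ac was thus called in KO, JmjD-dead and WT, while H3K4me1 was called in KO only at SLAMF7, with a fold of 4.52 against 12.2 in WT.

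The list of KDM6A, COMPASS and Polycomb genes had 6 of 20 (30.0%, 11.9 to 54.3%), and KARPAS-shared sites reached 2 of the 20. The 6 were KMT2C and NCOA6 of the complexes that hold KDM6A, EZH1, EED and JARID2 of Polycomb repressive complex 2, and RNF2 of Polycomb repressive complex 1. JARID2 had 2 sites with H3K27ac in each genotype, the first with folds of 14.1 in KO, 29.5 in JmjD-dead and 36.1 in WT. RNF2 had a site with H3K27ac of 5.58 in WT and no region in KO or JmjD-dead. Another stretch of the same WT region overlapped a region in KO and in JmjD-dead. KMT2C had a site with no H3K27ac or H3K4me1 region in any genotype profiled.

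Myeloma oncogene and survival genes had 5 of 20 (25.0%, 8.66 to 49.1%), and KARPAS-shared sites also reached 5 of the 20. Those with an ARP1-only site were MAF, a transcription factor activated by translocation in myeloma, CCND3, a D-type cyclin, BCL2L11, which encodes the pro-apoptotic BIM, IL6ST, the signalling chain of the IL-6 receptor, and IKZF3, a target of lenalidomide. BCL2L11 had the strongest site, chr2:111115995-111116544 with a KDM6A fold of 22.9, and H3K27ac of 4.72 in JmjD-dead and none in KO or WT. The 3 sites of MAF lay 54.1 to 189 kb from the nearest start in the promoter table and had KDM6A folds of 5.85 to 18.6. IKZF3 had 3 ARP1-only and 6 KARPAS-shared sites, with H3K27ac folds at the ARP1-only sites of 27.8 to 59.8 in KO, 49.5 to 68.4 in JmjD-dead and 45.8 to 82.3 in WT.

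Antigen presentation genes of class I had 4 of 21 (19.0%, 5.45 to 41.9%), and those of class II 0 of 16 (interval up to 20.6%), where KARPAS-shared sites had 3. In class I KARPAS-shared sites had 1. TAP1, TAP2, the peptide transporter, and PSMB8, an immunoproteasome subunit, shared 1 site, chr6:32840581-32841051, with a KDM6A fold of 6.91 and an HA fold of 9.75. Its H3K27ac region had a fold of 11.6 in KO, 74.7 in JmjD-dead and 114.3 in WT, and its H3K4me1 region 87.1 in WT with none in KO. NLRC5, the transactivator of class I genes, had 3 ARP1-only and 4 KARPAS-shared sites, each ARP1-only site with H3K27ac in KO, JmjD-dead and WT. The highest of these in WT had folds of 15.0 in KO, 19.3 in JmjD-dead and 26.8 in WT.

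Immune ligand and adhesion genes had 4 of 26 (15.4%, 4.36 to 34.9%) and interferon genes 3 of 30 (10.0%, 2.11 to 26.5%), both near the background of 12.8%. The HHLA2 promoter site, chr3:108296405-108296604, whose window is printed above, had a KDM6A fold of 3.72 and H3K27ac folds of 64.4 in KO, 60.5 in JmjD-dead and 119.9 in WT. HHLA2 encodes a B7 family ligand, and a second site beyond it had H3K27ac of 16.6 in KO, 18.1 in JmjD-dead and 55.5 in WT. BTLA, an inhibitory receptor, had an HA fold of 29.6, the highest of any listed gene, with H3K27ac of 8.31 in KO, 22.02 in JmjD-dead and 45.0 in WT, and CD86, a costimulatory ligand, had 10.4, 9.83 and 22.7 in that order. The site of CD48, an adhesion ligand of the SLAM family, had 4.57 in KO, 21.2 in JmjD-dead and 23.8 in WT. The site on the shared promoter of IFIT5 and LIPA, chr10:89414339-89414716, had a KDM6A fold of 15.4 and an H3K27ac region of 5.90 in JmjD-dead, with none in KO or WT. The second IFIT1 site, chr10:89392931-89393385, had a KDM6A fold of 20.2 and no region of H3K27ac or H3K4me1 in any genotype profiled. BST2, an antiviral tether, had 2 sites with H3K27ac in KO, JmjD-dead and WT. OAS1, an antiviral sensor of double-stranded RNA, had 2 sites, the first with H3K27ac folds of 5.82 in KO, 21.6 in JmjD-dead and 12.7 in WT. The second had no region in KO, against 9.83 in JmjD-dead and 10.4 in WT, although another stretch of its WT region overlapped a KO region.

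The remaining lists were near or below the background of 12.8%. B cell genes had 2 of 20 (BACH2, a repressor of plasma cell fate, with 5 sites, and BLK), T and NK genes 2 of 14 (CD2 and NCAM1), myeloid genes 1 of 10 (FCGR1A) and HOX genes 1 of 39 (HOXB9). Among the BACH2 sites, chr6:89954830-89955070 and chr6:89955259-89955703 lay on the same H3K27ac regions, with folds of 25.8 in KO, 34.2 in JmjD-dead and 45.0 in WT. The site chr6:89952803-89953118 lay on the same KO and JmjD-dead regions and on a separate WT region of 8.94. The other BACH2 sites had folds of 5.40 in KO, 6.29 in JmjD-dead and 4.84 in WT, and of 14.9 in JmjD-dead and 11.5 in WT with none in KO. Another stretch of that last WT region overlapped a KO region. The first BLK site, in the gene of a B cell tyrosine kinase, had 4.57 in KO, 20.4 in JmjD-dead and 4.10 in WT, and the second 7.86 in JmjD-dead and 5.58 in WT with none in KO.

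**Figure D4:**
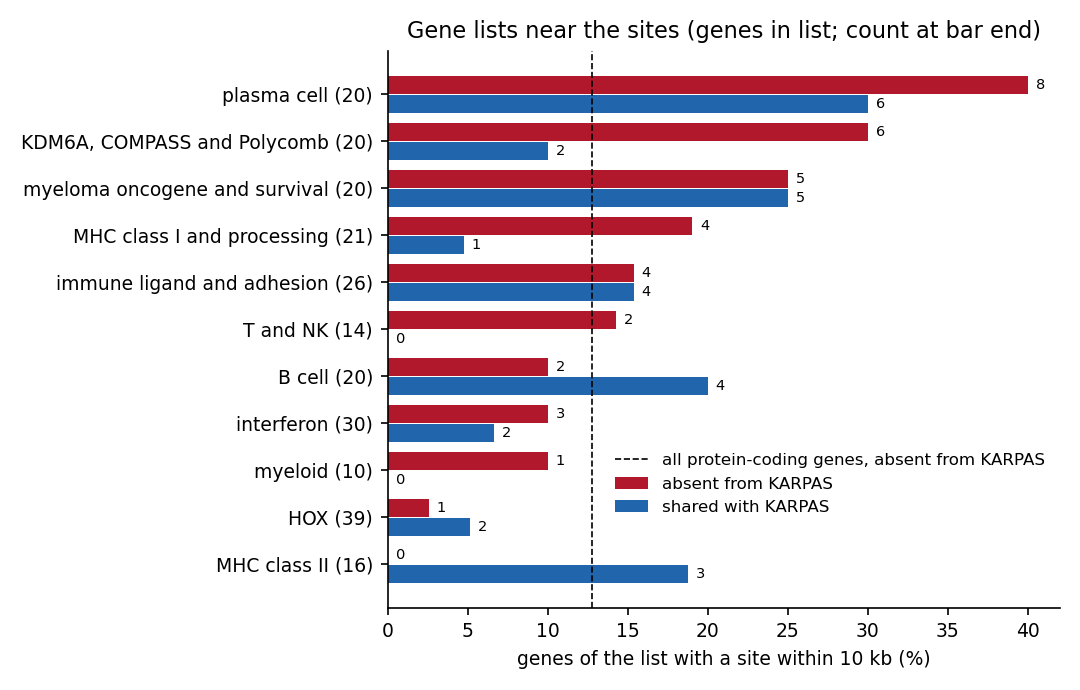
Percent of genes in each list (horizontal axis) with an ARP1-only or a KARPAS-shared site within 10 kb, the number of genes in the list in brackets and the number with a site at each bar end. The dashed line is the 12.8% of all protein-coding genes with an ARP1-only site, and plasma cell genes lead with 8 of 20.

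Across the genome ARP1-only sites were spread thinly, with a few crowded bins. Of 2921 bins of 1 Mb that held a WT KDM6A region, 2111 held an ARP1-only site, 2 in the median such bin, and 1653 held 1 to 4. Bins with 10 or more sites numbered 59, and the 10 fullest held 291 sites (4.29%). Dense bins, 99 bins with over 10 times the median of 11 WT KDM6A regions, held 59.4% of all WT KDM6A regions. They held 587 ARP1-only sites (8.65%) and 120 KARPAS-shared sites (3.38%). The rule for both sets leaves out KO KDM6A regions and HA regions of the WT line. The dense bin of chromosome 1 from 149 to 150 Mb held 543 and 566 of these, against medians of 2 and 7 per bin. The low shares are thus a description, and the part of the rule in them was not tested. With dense bins left out, the 10 fullest bins held 2.45% of the remaining ARP1-only sites.

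**Figure D5:**
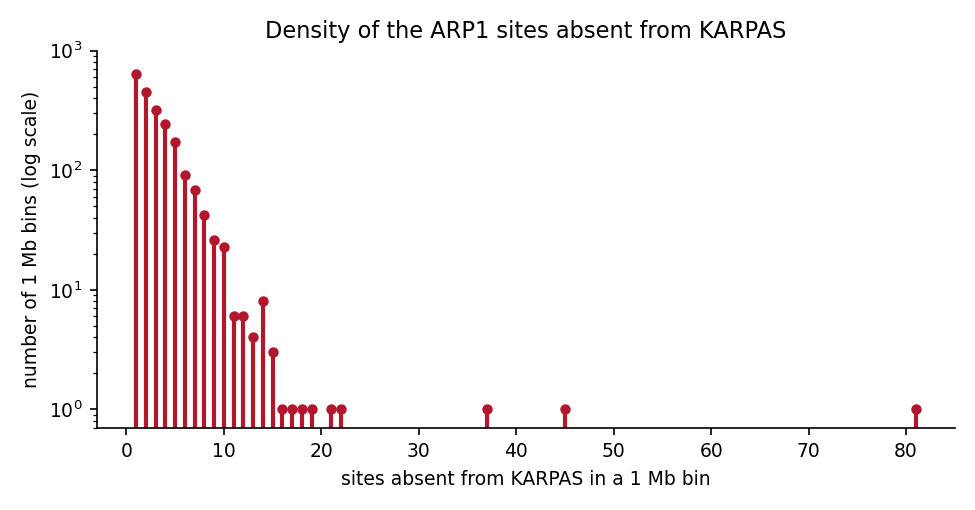
Number of 1 Mb bins (vertical axis, log scale) by the number of ARP1-only sites in the bin (horizontal axis). Most occupied bins hold 1 to 4 sites, and a single bin holds 81.

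The most crowded bins lay side by side on chromosome 2. The bin from 12 to 13 Mb held 81 ARP1-only sites and 4 KARPAS-shared sites, with TRIB2, a pseudokinase, the protein-coding gene within 10 kb. The bin from 11 to 12 Mb held 45 and 2, near E2F6, GREB1, LPIN1, NTSR2, PPIAP60 and ROCK2, and the bin from 13 to 14 Mb held 37 and 1, with no protein-coding gene within 10 kb of a site. From 9 to 14 Mb there were 185 ARP1-only and 8 KARPAS-shared sites. Other lists were crowded there too. The bin from 12 to 13 Mb held 324 H3K27ac regions in KO, 221 in JmjD-dead and 345 in WT, against medians of 18, 18 and 17 per bin, and 16, 5 and 6 input regions against medians of 3, 1 and 2. The same bin held 22 KARPAS KDM6A regions, against a median of 12. Copy number was not measured in these data, and its part in the count was not tested.

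In that block 48.6% of ARP1-only sites had H3K27ac in WT. It was lost at 23.3% (15.1 to 33.4%) of them in KO and at 31.1% (21.8 to 41.7%) in JmjD-dead, against 15.7% and 9.26% of ARP1-only sites elsewhere. Inside the block the JmjD-dead share stood above the KO share and elsewhere below it, with intervals inside the block that overlap.

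Of the other leading bins, those of chromosome 1 from 146 to 147 Mb (21 sites) and 149 to 150 Mb (22 sites) lay in the NBPF and NOTCH2NL families and held 1 and 5 sites with WT H3K27ac. The bin of chromosome 1 from 103 to 104 Mb held 19 ARP1-only sites near AMY1A, AMY1B, AMY1C and AMY2B, salivary and pancreatic amylases that are near-identical copies, where KARPAS had no KDM6A region. Of its 4 sites with WT H3K27ac, 4 lost it in KO and 2 in JmjD-dead. By chromosome, the part of both-antibody sites that were ARP1-only was highest on chromosome 2, at 80.0%, and chromosome 4, at 78.6%, and lowest on chromosome 19, at 34.0%. Without the block from 9 to 14 Mb, 495 of 657 sites of chromosome 2 were ARP1-only, 75.3% (71.9 to 78.6%), below chromosome 4.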

How the data were processed

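Per the labels' protocols, chromatin was fixed with formaldehyde, sonicated, precipitated on magnetic beads and tagmented. Bowtie2, Trimmomatic and MACS2 2.1.2 are named with build GRCh38, per the submitters' processing notes. Per the file headers, MACS 2.2.7.1 called the H3K27ac, H3K27me3 and input regions and 2.1.1.20160309 the KDM6A, HA and H3K4me1 regions, per library with no control library and a q-value threshold of 0.05. Without a control, copy gains and repeats can give regions. Each deposited row gives the authors' pileup signal, fold enrichment (a ratio), −log10 p-value and −log10 q-value, which were used to rank, filter or describe regions within a list.

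Summits of 1 region were merged, and chromosomes 1 to 22 and X were kept. Shares carry exact Clopper-Pearson 95% intervals for counting error. With 1 library per group no test between groups was made. A mark was lost where a site overlapped a WT region and no mutant region, and gained in the opposite case. Ranks and rank classes used −log10 q, then fold. Bins were 1 Mb, a site being placed by its midpoint. Genes were the 19974 protein-coding genes of RefSeq GRCh38.p14 with their span extended by 10 kb. That gene table has no strand, so distances and sequences used the RefSeq promoter table, which matched 2128 of the 2563 genes near a site.

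Genes named were those of the 10 highest sites, the genes with most sites, genes of the 5 densest bins, the 10 highest ranked losses and gains common to both mutants, and every listed gene with a site. The housekeeping list is not reported here. The members, lists and rules were chosen with earlier results of these data known. On simulated data the overlap and counting steps gave the known answer in 5 of 5 checks. Scripts ran in Python 3.11.15 (pandas 2.3.3, numpy 2.4.6, scipy 1.17.1), and figures were drawn with matplotlib 3.10.9.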

Additional observations from a re-analysis of the deposited data

How the results depend on the processing

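No paired analysis was possible because each group is 1 library and the labels give no replicate numbers. For the same reason no library could be left out. Of 69 values over all settings, 30 moved beyond their interval (counts beyond 1.5 times), and the cause was not tested beyond what each setting removes. With −log10 q of at least 5 in every list there were 4316 sites, with H3K27ac on 76.5%, H3K4me1 on 74.7% and H3K27me3 on 1.83%, loss of H3K27ac in JmjD-dead of 6.99%, loss of H3K4me1 in KO of 97.6% and 3.13% of sites in the 10 densest bins. With overlaps of at least 50% the marks were on 51.3%, 58.2% and 1.80%, loss of H3K27ac was 24.2% in KO and 19.6% in JmjD-dead, loss of H3K4me1 97.1%, and the densest bins held 5.06%. With lists of equal length there were 4465 sites, with H3K27ac on 74.9%, H3K27me3 on 4.50%, loss of H3K27ac in JmjD-dead of 8.11% and of H3K4me1 of 90.7%. Without the dense bins, H3K27ac was on 77.2%, H3K4me1 on 80.6%, loss of H3K4me1 was 92.5% and the densest bins left held 2.45%. Without chromosomes 2 and 11 H3K27me3 was on 4.46%, loss of H3K4me1 was 92.6% and the densest bins held 2.91%. A window of 50 kb reached 4589 genes. With the whole WT region looked up, loss of H3K27ac was 10.9% in KO and 6.02% in JmjD-dead, and of H3K4me1 80.4%. Leaving out sites on input regions or on HA regions of the WT line moved none of the values. These settings left 6740 and 6656 of the 6787 sites. The input libraries were shallow, at 0.725 M fragments in KO, 0.223 M in JmjD-dead and 0.384 M in WT. The input setting could therefore remove few sites and does not exclude input signal at the others. The settings for loss of H3K4me1 were added after seeing the data. Depth differs between libraries, KARPAS being the deepest for KDM6A and ARP1 WT the shallowest, so sites with 5 to 10 tags are the least certain.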
